A study of Danio rerio with 6 samples.

Results

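The hatching gland is a band of secretory cells over the yolk of the fish embryo that stores proteases in granules and releases them to dissolve the egg envelope, the chorion, when the embryo hatches. In zebrafish the cells come from the front end of the prechordal mesoderm, the polster, and they are known by the astacin metalloproteases of the hatching enzyme group, by a cathepsin L and by the tetraspanin Cd63. The Krüppel-like factor Klf17 is a transcription factor that is expressed in these cells and that zebrafish need to form the gland. The genes described here are 1 protease of each kind, he1.1 and ctslb, the membrane protein gene cd63 and the regulator gene klf17. They were taken as the probe sets whose platform annotation gives exactly 1 symbol, that symbol being one of these 4. This found 4 probe sets of 15726, 1 for each gene, among 11738 probe sets with 1 symbol.

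The samples were total RNA of whole zebrafish embryos at 48 h after fertilization, in 3 samples from embryos injected at the one-cell stage with the setb morpholino MO1 and in 3 from embryos injected with a control morpholino, each on 1 Affymetrix array. A morpholino is a modified antisense oligonucleotide that blocks the translation or the splicing of its target transcript, and setb is a zebrafish counterpart of SET, a histone chaperone and an inhibitor of protein phosphatase 2A. Phenotypes of the embryos were graded normal-like, mild or moderate, and which grade went into which sample is not given in the sources read for this text, nor are the strain, the morpholino doses, the number of embryos pooled or whether they had hatched. No label ties the replicates to separate clutches, and the p-values therefore cover the spread among these samples only, part of which may be technical.

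Values are log2 intensities after RMA, a method that corrects the background, brings the arrays to 1 distribution and combines the probes of each set, so that a difference of 1 stands for a 2-fold difference in intensity. Array medians were 9.47 to 9.49 and the lowest values of the arrays 5.11 to 5.90. Levels of different probe sets are not comparable with each other, because each binds its probes with its own efficiency, and only changes are compared between genes here. The probe set of setb itself averaged 12.65 ± 0.04 in setb MO1 embryos and 12.46 ± 0.07 in control embryos (SD, n = 3 each), a difference of 0.19 ± 0.07 (SE, limma adjusted p = 0.0471). The labels do not say whether MO1 blocks translation or splicing, and a block of translation need not lower a transcript. The setb value therefore does not check the labels. The probe set of the paralog seta differed by −0.21 ± 0.08 (limma adjusted p = 0.0781).

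All 4 hatching gland genes were higher in setb MO1 embryos. The hatching enzyme gene he1.1 was 2.04-fold higher, the cathepsin gene ctslb 1.71-fold, the regulator gene klf17 1.34-fold and the tetraspanin gene cd63 1.3-fold. Each passed an adjusted p of 0.05 in limma with Benjamini-Hochberg adjustment over all 15726 probe sets, and in each the 3 setb MO1 arrays lay above the 3 control arrays. The change in these embryos was broad, so these counts are set beside all probe sets. Of all probe sets, 44.0% were called in either direction, 22.7% higher and 21.4% lower, and 29.0% had every setb MO1 array above every control array. The 4 genes were chosen with earlier results of these data known, so their counts do not test whether such genes rise more often than others. The 3563 probe sets called higher became 2363 without control replicate 2 and 5542 with array weights, so these shares depend on the arrays used. In RNA of whole embryos, a change in the number of gland cells and a change in the RNA per cell cannot be told apart.

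The gene he1.1 encodes a hatching enzyme, a secreted zinc protease of the astacin family that digests the chorion. Its log2 level was 10.77, 10.86 and 10.84 in the setb MO1 arrays and 9.73, 9.77 and 9.88 in the control arrays. The setb MO1 arrays were all high and lay within 0.08 of each other, and the control arrays were all low and lay within 0.15. The gap between the lowest setb MO1 array and the highest control array was 0.89. The setb MO1 mean was 10.82 ± 0.05 and the control mean 9.80 ± 0.08 (SD, n = 3 each), a difference of 1.03 ± 0.07 (SE, limma adjusted p = 0.000154). The 95% interval of the fold ran from 1.82 to 2.27. The change of he1.1 ranked 154 among the increases of all probe sets, so that 0.979% of probe sets changed by at least as much in this direction.

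The gene ctslb, known earlier as hatching gland gene 1 (hgg1), encodes a cathepsin L, a cysteine protease that in most cells works in lysosomes. The log2 level of ctslb was 11.76, 11.81 and 11.77 in the setb MO1 arrays and 10.91, 11.07 and 11.05 in the control arrays. The setb MO1 arrays were again high and close together, while control replicate 1 was the lowest of the 6 arrays and the gap between the groups was 0.69. The setb MO1 mean was 11.78 ± 0.03 and the control mean 11.01 ± 0.09 (SD, n = 3 each). The change was 0.77 ± 0.07 (SE, limma adjusted p = 0.000279). The interval of the fold was 1.53 to 1.91, and 2.86% of probe sets had an increase at least as large.

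The gene cd63 encodes a tetraspanin, a protein with several membrane spans that is carried by late endosomes, lysosomes and secretory granules of many cell types and is expressed strongly in the hatching gland. Its log2 level was 11.88, 12.01 and 12.02 in the setb MO1 arrays and 11.63, 11.56 and 11.58 in the control arrays. Setb MO1 replicate 1 lay below the other setb MO1 arrays, still 0.25 above the highest control array. The setb MO1 mean was 11.97 ± 0.08 and the control mean 11.59 ± 0.03 (SD, n = 3 each). Their difference was 0.38 ± 0.07 (SE, limma adjusted p = 0.00390) with an interval of the fold of 1.16 to 1.45. An increase at least as large was found in 14.5% of all probe sets.

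The gene klf17, in older annotations biklf or klf4b, is the regulator among the 4. On the log2 scale klf17 was at 9.12, 9.12 and 9.35 in the setb MO1 arrays and 8.81, 8.65 and 8.86 in the control arrays. Setb MO1 replicate 3 was the highest array and control replicate 2 the lowest, and the groups were 0.26 apart. The setb MO1 mean was 9.20 ± 0.13 and the control mean 8.77 ± 0.11 (SD, n = 3 each). The difference came to 0.43 ± 0.09 (SE, limma adjusted p = 0.00889) with an interval of the fold of 1.16 to 1.56. It had the widest spread within both groups among the 4 genes, and 11.9% of all probe sets had an increase at least as large. The control values of klf17, 8.65 to 8.86, lie near 8.45, a level that every deposited probe set reached in some array. At such levels background signal would understate a change.

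**Figure D1:**
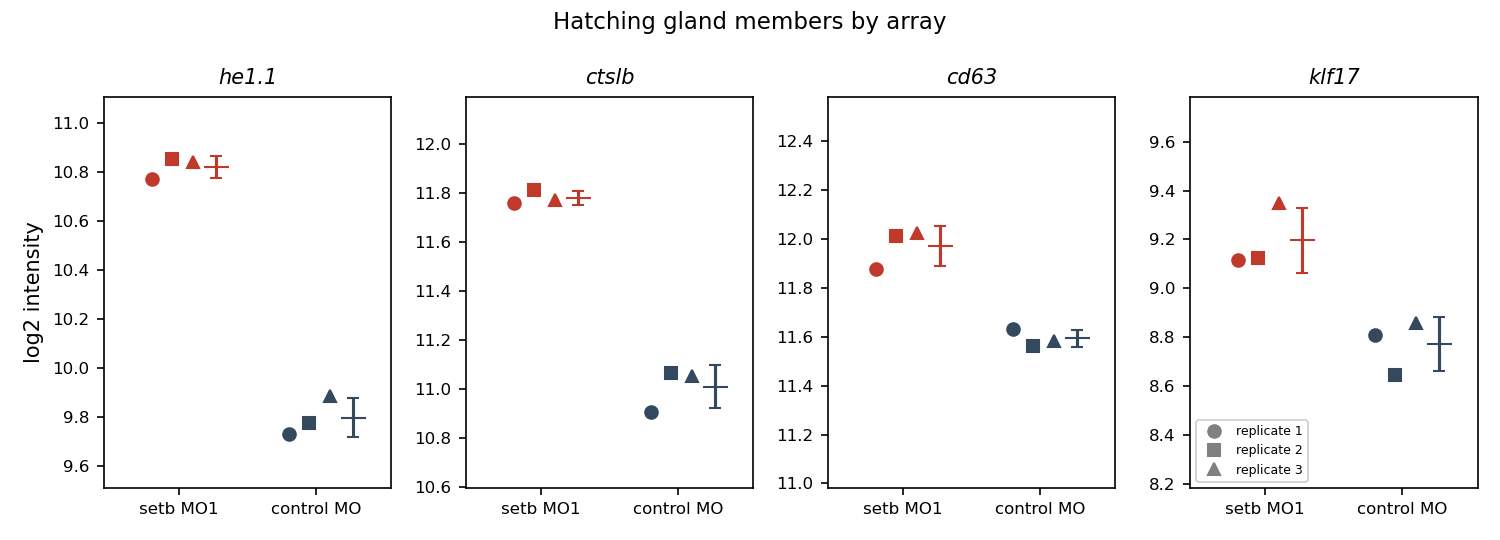
Log2 intensity (vertical axis, each panel spanning the same height) of he1.1, ctslb, cd63 and klf17 in the setb MO1 arrays (red, left) and the control morpholino arrays (dark, right), with 1 symbol per replicate and the mean ± SD (n = 3) beside them. The groups are separate in all 4 panels, by 0.89 for he1.1, 0.69 for ctslb, 0.26 for klf17 and 0.25 for cd63.

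The changes of the 4 genes were compared in pairs. The log2 change of he1.1 was larger than that of ctslb by 0.25, than that of klf17 by 0.60 and than that of cd63 by 0.65. The change of ctslb was larger than that of klf17 by 0.35 and than that of cd63 by 0.40. In these 5 pairs the difference in level between both genes did not overlap between the groups. For he1.1 less cd63, for example, it lay between −1.18 and −1.11 in the setb MO1 arrays and between −1.90 and −1.70 in the control arrays. How many pairs of other genes are separated in this way was not counted, so the 5 have no background to be read against. An exact two-sided permutation test over the 6 arrays gave p = 0.1 in each of the 5 pairs, the smallest value that 3 arrays against 3 allow, and 0.12 after Benjamini-Hochberg adjustment over the 6 pairs. None of the 6 pairs passed 0.05, which this exact test cannot reach with 3 arrays against 3. The changes of cd63 and klf17 differed by −0.05 with overlapping groups (exact p = 0.7, adjusted p = 0.7). Background signal may have understated the change of klf17 in each of its pairs, which was not tested. The plot of all changes shows the 4 genes in the upper part of a distribution with a median of 0.02, the proteases at its edge and the other two within its shoulder.

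**Figure D2:**
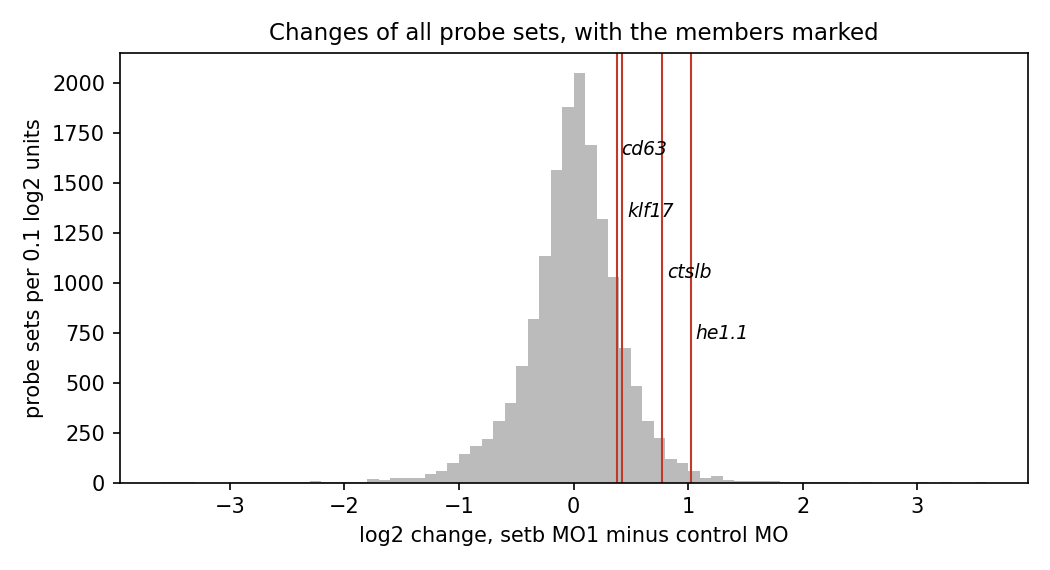
Number of probe sets (vertical axis) by log2 change of setb MO1 minus control morpholino in bins of 0.1 (horizontal axis), over all 15726 probe sets, with red lines at the members. The lines of cd63 (0.38) and klf17 (0.43) stand close together, and those of ctslb (0.77) and he1.1 (1.03) lie further to the right, where few probe sets remain.

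Further probe sets bind transcripts of ctslb or cd63 together with other genes and were not counted as members. One is annotated to ctslb and 10 other symbols, which RefSeq places on the same chromosome, and the genes on either side of ctslb there, si:dkey-239j18.2 and si:dkey-239j18.3, are among them. On the log2 scale it was at 13.60, 13.56 and 13.60 in the setb MO1 arrays and 13.13, 13.27 and 13.29 in the control arrays, a change of 0.35 ± 0.07 (SE, limma adjusted p = 0.00532). It was higher in every setb MO1 array, and the signal cannot be assigned to 1 gene. Close copies of ctslb may also reach the probe set that is annotated to ctslb alone. The other is annotated to cd63 and letmd1, its neighbour in RefSeq, and changed by 0.34 ± 0.09 (limma adjusted p = 0.0165), from levels of 9.60, 9.82 and 9.85 in the setb MO1 arrays and 9.47, 9.34 and 9.44 in the control arrays. The hatching enzyme genes he1.2 and he1.3, which follow he1.1 in RefSeq, were not analysed here, and the specificity of the he1.1 probe set against them was not tested.

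The 4 members and other genes known from the gland or from secretory cells like it were counted from a list of 12, of which 9 had a probe set with 1 symbol. Of the 9, 6 rose and 3 did not pass, against 23.8% higher and 20.7% lower (44.5% in either direction) of all 11311 genes, each represented by the brightest of its probe sets. The median change of the 9 was 0.43, and that of all genes 0.02. Beyond the 4 members, 2 of 5 rose, and the median of the 5 was 0.07. This list and those below were also chosen with earlier results of these data known. Their counts are therefore descriptions and do not test the lists against all genes.

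The 2 that rose are transcription factor genes of the gland that also act in other tissues. The gene prdm1a encodes a zinc finger repressor that is also known from slow muscle and the neural plate border. Its log2 level was 10.32, 10.44 and 10.62 in the setb MO1 arrays and 9.75, 9.64 and 9.61 in the control arrays, with all setb MO1 arrays above all control arrays. The change was 0.79 ± 0.09 (SE, 1.73-fold, limma adjusted p = 0.000616). The gene foxa3 encodes a forkhead factor of the gland and the gut endoderm. For foxa3 the log2 level was 9.60, 9.86 and 9.79 in the setb MO1 arrays and 9.17, 9.20 and 9.38 in the control arrays, again without overlap, a change of 0.50 ± 0.09 (limma adjusted p = 0.00457).

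The 3 that did not pass were xbp1, agr2 and cap1. The gene xbp1 encodes a transcription factor of the unfolded protein response that serves cells with heavy secretion, and its log2 level was 10.75, 10.93 and 10.69 in the setb MO1 arrays and 10.96, 10.93 and 10.81 in the control arrays. These overlap, with a difference of −0.11 and a 95% interval of −0.31 to 0.08 (limma adjusted p = 0.309). The gene agr2, which encodes a disulfide isomerase of the secretory pathway known from mucus-producing cells, differed by −0.18 ± 0.08 (SE, limma adjusted p = 0.103). The actin regulator gene cap1 differed by 0.07 ± 0.07 (limma adjusted p = 0.424). On this list the proteases, cd63 and the transcription factor genes klf17, prdm1a and foxa3 thus rose, and the genes xbp1, agr2 and cap1 did not pass.

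**Figure D3:**
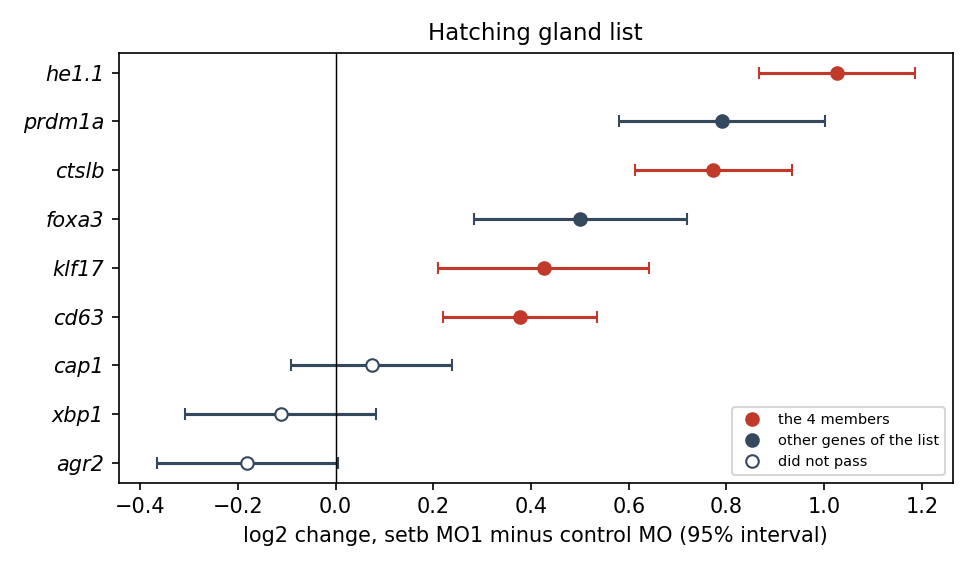
Log2 change of setb MO1 minus control morpholino with its 95% interval (horizontal axis) for the 9 measured genes of the hatching gland list, members in red and other genes dark, with open symbols for genes that did not pass. The intervals of he1.1, prdm1a, ctslb, foxa3, klf17 and cd63 lie above 0, and those of cap1, xbp1 and agr2 include it.

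Each member was also set beside the family of its protein. Of 19 cathepsin and legumain genes, which encode proteases mostly of the lysosome, 13 were measured, and 11 of these rose, none fell and 2 did not pass (23.8% of all genes rose). Without ctslb the count was 10 of 12. The gene ctss2.1, among those that rose, was at 7.90, 8.03 and 8.16 in the control arrays. In the setb MO1 arrays it was at 8.78, 8.95 and 8.82. Deposited probe sets all reached 8.45 or more in some array, and ctss2.1 did so in the setb MO1 arrays only. Its place in the count therefore depends on the group where it is high. The median change of the 13 was 0.47. The gene ctsba, a cathepsin B, rose by 1.09 ± 0.11 (SE, limma adjusted p = 0.000356). The gene ctsh, a cathepsin H with aminopeptidase activity, rose by 0.75 ± 0.06 (limma adjusted p = 0.000260). The closest named relative of ctslb on the list, ctsla, was at 12.29, 12.22 and 12.10 in the setb MO1 arrays and 11.90, 11.78 and 11.76 in the control arrays, a change of 0.39 ± 0.08 (limma adjusted p = 0.00535). The increase of ctslb thus stood among increases of most measured cathepsin genes, and whether it differed from them was not tested. The genes that did not pass were ctsk (0.02 ± 0.09) and ctso (0.15 ± 0.07). The genes ctsla, ctss2.1, ctsk and ctso were chosen for naming after their values were seen.

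The tetraspanin and Krüppel-like factor families had calls in both directions, at shares near those of all genes, of which 23.8% were higher and 20.7% lower. Of 31 measured tetraspanin genes, 7 rose, cd63 among them, 7 fell and 17 did not pass, with a median change of −0.01. The genes tspan18a (0.54 ± 0.08, SE) and cd9b (0.49 ± 0.08) rose with the smallest p-values, and tspan18b (−0.56 ± 0.06), tspan13a (−0.74 ± 0.10) and tspan13b (−0.49 ± 0.07) fell. Every deposited probe set reached at least 8.45 in some array. The gene tspan18a was below 8.45 in all control arrays and tspan13a in all setb MO1 arrays, so each reached that level in 1 group only. Of 18 measured Krüppel-like factor genes, 4 rose, klf17 among them, 5 fell and 9 did not pass, with a median of 0.02. The genes klf6a (0.43 ± 0.06) and klf5a (0.34 ± 0.08) rose, and klf13 (−0.75 ± 0.10), klf11a (−0.48 ± 0.07) and klf12b (−0.33 ± 0.08) fell. Of 15 astacin protease genes only he1.1 and bmp1a, a procollagen protease gene at 0.02 ± 0.06 (limma adjusted p = 0.824), were measured.

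Genes of compartments that the products of he1.1, ctslb or cd63 pass through were counted in the same way, against 23.8% higher and 20.7% lower of all genes. Of 48 measured lysosome genes, 18 rose, 7 fell and 23 did not pass, with a median of 0.05. The 18 include cd63 and 6 genes of the cathepsin list, which were already counted above, so this count is not independent of the earlier ones. The share that rose among the remaining lysosome genes was not computed. Among the lysosome genes that rose was psap, the precursor gene of the saposins (0.47 ± 0.06, SE). Among those that fell were the proton pump genes atp6v0a1b (−0.62 ± 0.07), atp6v0cb (−0.41 ± 0.06) and atp6ap1a (−0.67 ± 0.10). Other proton pump genes went both ways. The genes atp6v0a1a (0.37 ± 0.06) and atp6ap1b (0.25 ± 0.09) rose, atp6v1g1 (−0.36 ± 0.10) and atp6v1d (−0.23 ± 0.07) fell, and the rest did not pass. Of the lysosome genes called, naglu, which rose, was below 8.45 in all control arrays. The gene mcoln1b, which fell, was below that level in all setb MO1 arrays. Of 67 genes of the secretory pathway and of protein folding in the endoplasmic reticulum, 6 rose, 15 fell and 46 did not pass, with a median of 0.02. The vesicle fusion gene sec22ba (0.64 ± 0.08) and srprb, a subunit gene of the signal recognition particle receptor (0.71 ± 0.13), rose. The calreticulin genes calr (−0.81 ± 0.09) and calr3a (−0.67 ± 0.07) and the chaperone gene dnajb11 (−0.58 ± 0.07) fell.

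**Figure D4:**
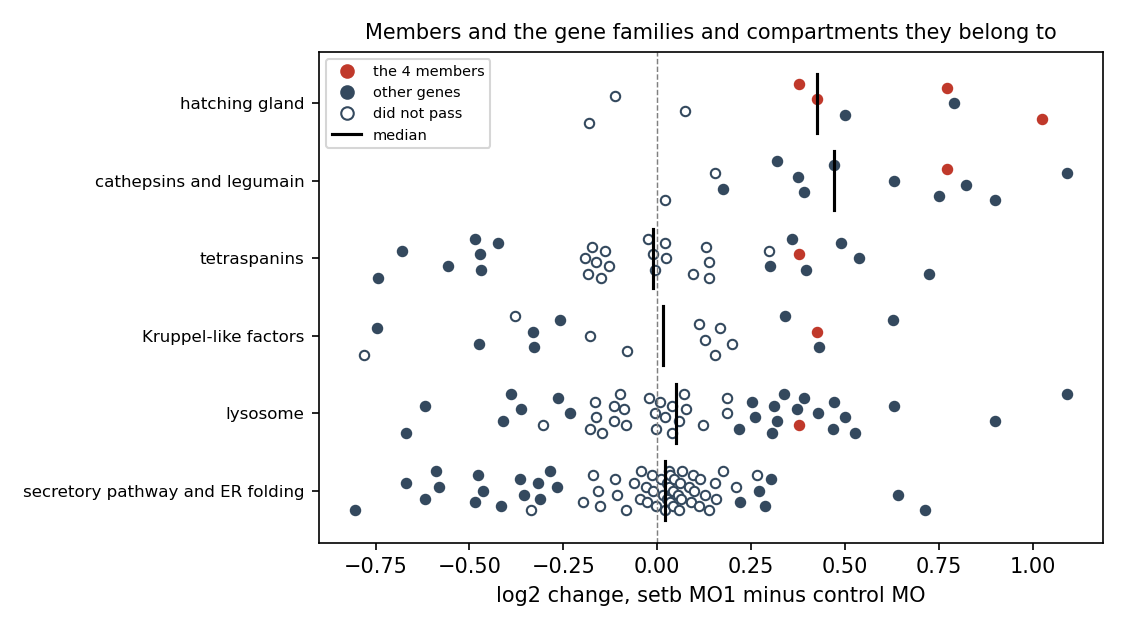
Log2 change of setb MO1 minus control morpholino (horizontal axis) of each measured gene in 6 lists, with members in red, open symbols for genes that did not pass and a bar at each median. The median of the cathepsin list (0.47, and 0.43 without ctslb) lies right of 0. That of the hatching gland list (0.43) does so with the members counted, and the median of its 5 other genes is 0.07. The medians of the tetraspanins (−0.01), Krüppel-like factors (0.02), lysosome (0.05) and secretory pathway (0.02) lie near 0.

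The gene cd63 is known from many cell types outside the gland, and markers of other cell types moved in the same RNA. Of 13 epidermis markers 11 were measured and 6 rose, none fell. These counts and the next are again read against 23.8% higher and 20.7% lower of all genes. The epidermis markers that rose include icn2 at 0.79 ± 0.09 (SE), the protease inhibitor gene spint1a at 0.52 ± 0.07 and the adhesion gene epcam at 0.53 ± 0.08. Those that did not pass were krt4 (0.06 ± 0.06), cyt1l (0.05 ± 0.06), tp63 (0.12 ± 0.07), krt91 (−0.02 ± 0.12) and krt5 (−0.15 ± 0.09). The mean log2 level of the 11 was 11.65 to 11.72 in the setb MO1 arrays and 11.37 to 11.49 in the control arrays. Of 9 ionocyte markers 4 were measured and 3 rose, with ca15a at 0.75 ± 0.08, atp1a1a.4 at 0.31 ± 0.09 and atp1b1b at 0.27 ± 0.08. The ionocyte marker ca2 did not pass (0.03 ± 0.07). The mean log2 level of the 4 was 10.97 to 11.17 in the setb MO1 arrays and 10.69 to 10.75 in the control arrays. Of 12 leukocyte markers, from cells rich in cathepsins and Cd63, 7 were measured, 3 fell and none rose. Those that fell were lyz at −1.18 ± 0.08, mpx at −0.52 ± 0.12 and lcp1 at −0.21 ± 0.07. The others did not pass and had both signs, with mpeg1.1 at 0.31 ± 0.13, spi1b at −0.07 ± 0.13, coro1a at −0.16 ± 0.10 and csf1ra at −0.30 ± 0.11. The mean log2 level of the 7 was 8.81 to 9.10 in the setb MO1 arrays and 9.21 to 9.34 in the control arrays. This mean takes in lyz, whose change was the largest of the 7. Group means of lcp1, spi1b and mpeg1.1 were 8.10 to 8.66, near the 8.45 that every deposited probe set reached in some array. At such levels background signal would understate a change. Of 15 exocrine pancreas markers only cpa5 was measured, and it fell (−0.69 ± 0.11). The part of these cell types in the results on the hatching gland genes was not tested.

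Genes with the most similar profiles were found by the root mean square difference, over the 6 arrays, between log2 levels centred on the mean of each gene, among 10582 other genes with a name. This measure takes in the difference between the groups, which all these genes share, and describes likeness in these arrays only. Nearest to he1.1 were stard15 (root mean square difference 0.0441), foxb1a, rnf169, mrps10 and rasl11b, with changes of 0.97 to 1.06. Nearest to ctslb were sdad1 (0.0213), rsl1d1, slc12a1, isg20 and adam9b. Nearest to cd63 were emd (0.0219), znf703, mrpl49, plxnd1 and coq7, and nearest to klf17 were dkk1b (0.0356), zic2a, tbc1d17, gnai3 and QPCT. Control means of stard15, rasl11b, slc12a1, adam9b, plxnd1 and dkk1b were 7.95 to 8.41, below the 8.45 that every deposited probe set reached in some array. These genes may have entered the deposited set through the setb MO1 arrays, where they are high.

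None of the 4 genes was among the 5 nearest of another. The closest pair was cd63 and klf17, at 0.0870, where cd63 stood at place 181 among the genes nearest to klf17 and klf17 at place 628 among those nearest to cd63. The proteases he1.1 and ctslb were 0.134 apart, with ctslb at place 107 from he1.1 and he1.1 at place 342 from ctslb.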

How the data were processed

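Expression was measured on 6 arrays. The authors deposited log2 intensities for 15726 probe sets, made by RMA per the submitters' processing notes. The version of RMA, the genome build and the filter that had removed probe sets dim in all arrays (each reached at least 8.45 in 1 array) are not stated in the labels or the file. Some genes, such as tspan18a and tspan13a, reached that level in 1 group only, so the counts of calls depend on this filter. No detection calls were used, and background signal would understate a fold change. Groups were taken from the treatment labels and replicate numbers from the titles.

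Symbols came from the platform annotation, where 11738 probe sets have 1 symbol, 413 several and 3575 none. Entrez identifiers of 11497 matched RefSeq (assembly GRCz12tu, used for names and neighbours only). Both groups entered 1 fit in limma 3.58.1 under R 4.3.3 (lmFit and eBayes, two-sided, Benjamini-Hochberg over all probe sets at 0.05) on the log2 values as deposited. The computation was checked on simulated data with independent noise and a small share of changed probe sets. Such data lack the broad change and the unequal arrays seen here, so the check does not bear on the calls. Differences between members were tested by exact permutation of 20 splits. The members, lists and alternatives were chosen with earlier results of these data known. Named were the members, the hatching gland list, up to 3 genes in each direction of each other list by smallest p, setb, seta and the 5 nearest genes of each member, passing over clone identifiers in the last. Further cathepsin, lysosome, proton pump, epidermis, ionocyte and leukocyte genes were named after their values were seen. Protein and promoter sequences were not used here. The labels name no scan date or batch.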

Additional observations from a re-analysis of the deposited data

How the results depend on the processing

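The increases of he1.1, ctslb, cd63 and klf17 kept their direction and stayed past the threshold under every alternative that gave a value, 16 each for he1.1, ctslb and cd63 and 15 for klf17. The alternative with an adjusted p threshold of 0.1 reuses the main fit, so these genes could not fail it. klf17 has no value among probe sets above the median level, since its own mean lies below it. Without single arrays the changes were 0.99 to 1.07 for he1.1, 0.72 to 0.80 for ctslb, 0.35 to 0.43 for cd63 and 0.35 to 0.47 for klf17. The largest adjusted p of each gene was that without control replicate 2, at 0.00209 for he1.1, 0.00281 for ctslb, 0.0235 for cd63 and 0.0396 for klf17 (limma). The number of hatching gland genes that rose stayed at 6 without single arrays. With array weights 7 rose, cap1 being added (0.14, limma adjusted p = 0.0175), and 1 fell, agr2 (−0.18, 0.0101). Over all 15726 probe sets the weighted fit also called more, 5542 higher and 5060 lower, against 3563 and 3361 in the main fit. In the weighted fit control replicate 2 had a weight of 58.9 and the other arrays 0.207 to 0.803. The control group of that fit thus rested almost wholly on 1 array, and its adjusted p-values add little to the main fit.

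The changes of 2 genes differed without single arrays by 0.21 to 0.27 for he1.1 less ctslb, 0.60 to 0.70 for he1.1 less cd63, 0.55 to 0.67 for he1.1 less klf17, 0.33 to 0.44 for ctslb less cd63, 0.28 to 0.44 for ctslb less klf17 and −0.11 to 0.003 for cd63 less klf17.

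The number of probe sets called, 3563 higher and 3361 lower, moved more. It was 5542 higher and 5060 lower with array weights, 2024 and 2045 at an adjusted p of 0.01, 1849 and 1561 above the median level, and 2213 lower above the 30th percentile. Without single arrays it was 2363 to 3541 higher and 2339 to 3350 lower, the fewest without control replicate 2. The filters and the threshold leave fewer to be called by construction; for array weights the cause was not tested.

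With the replicate number as a block, adjusted p was 0.000531 for he1.1, 0.000917 for ctslb, 0.0120 for cd63 and 0.00733 for klf17, and 6622 probe sets were called against 6924. Deviations from the group means correlated across probe sets at −0.006, −0.32 and 0.33 between samples with the same number. Between samples with different numbers they correlated at −0.31 to 0.38. Centring within groups of 3 ties these values together, so they cannot decide whether the numbers pair the samples. The number of arrays limits the precision, and the signal over background of each array was not used here.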
